A study of Mus musculus with 6 samples.

Results

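Immediate early genes are transcribed within minutes of a stimulus, without new protein synthesis, and 10 of them were followed here in mouse liver: Fos, Jun, Junb, Jund, Egr1, Ier2, Ier3, Dusp1, Zfp36 and Btg2. They were picked by name, found by Ensembl identifier among 55487 counted genes, and all 10 were among the 14046 genes with enough counts to be tested. The livers came from 6 male wild-type C57BL/6J mice on a normal chow diet, taken at 17 weeks of age. 3 mice had received GalNAc-siNC, a control small interfering RNA, and 3 had received GalNAc-siRnf10, which targets Rnf10, the gene of a RING finger ubiquitin ligase. Both were injected subcutaneously and carry N-acetylgalactosamine, a sugar bound by the asialoglycoprotein receptor of hepatocytes, which limits uptake by the other cells of the liver. All 6 libraries carry the same batch label, and the sources used here give neither the hour of collection nor whether the mice were fasted.

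The protein products act at different steps of one response. Fos and the Jun proteins pair through leucine zippers to form AP-1, which binds DNA and activates target genes, and Egr1 is a zinc finger transcription factor. Dusp1 removes phosphate from the MAP kinases that switch such genes on, Zfp36 (tristetraprolin) destabilises mRNAs that carry AU-rich elements, and Btg2 promotes shortening of mRNA tails and restrains proliferation. In liver these genes are known to respond to growth factors, feeding, injury, hormones and the handling of tissue.

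The depth was between 26854377 and 33058645 counts per library. Normalized counts below were scaled by the trimmed mean of M values (TMM) to a library of average size, and 3 counts, the limit that a count of 0 allows, correspond to between 2.61 and 3.39 normalized counts. Rnf10 itself, on chr5:115241412-115272898, had 3869, 4536 and 4040 normalized counts in GalNAc-siNC mice 1, 2 and 3, and 1738, 1820 and 1793 in GalNAc-siRnf10 mice 1, 2 and 3. Every GalNAc-siRnf10 liver therefore lay below every control liver for the targeted gene, with a log2 fold change of -1.22 ± 0.0715 (SE, edgeR quasi-likelihood test with Benjamini-Hochberg adjustment, adjusted p = 3.29e-09). Of the hepatocyte markers, Alb alone took between 3.72% and 6.08% of all counts in each library.

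Most of the 10 genes are compact. Their median genomic span was 3427 bases against 24444.5 for the 12348 protein-coding genes tested. All but Dusp1, which spans 56539 bases in the deposited gene model, lay below that tested median. The members' median number of exons in the longest coding transcript was 2 against 9. Jun, Junb, Jund and Ier2 had a single exon, a structure found in 2.27% of the tested coding genes. The AU-rich octamer TTATTTAT lay in the 3′ untranslated regions of Fos, Dusp1 and Zfp36, and in 14.3% of the tested coding genes with such a region. The shorter ATTTA was found in 9 of 10 members, all but Ier2, and in 70.4% of the tested genes. Members that rose and members that fell were both among those holding the octamer, as the values below show.

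Promoter stretches are shown for the members whose RefSeq promoter window, 250 bases before to 50 bases after the annotated start, held a cAMP response element half-site (TGACG, either strand) upstream of the start, because of the motifs searched it was found in the most members. The motif was chosen with the calls known, so nothing is read from which members hold it. RefSeq sequences (build GRCm38.p6) were on hand for 8 of the 10 genes. Capitals mark the half-site, or the full element TGACGTCA where half-sites on both strands overlap, and each stretch is written 5′ to 3′ on the strand of its gene.
Fos: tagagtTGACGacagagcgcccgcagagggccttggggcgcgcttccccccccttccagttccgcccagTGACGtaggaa
Junb: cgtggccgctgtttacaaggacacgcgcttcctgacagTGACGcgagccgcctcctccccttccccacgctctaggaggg
Dusp1: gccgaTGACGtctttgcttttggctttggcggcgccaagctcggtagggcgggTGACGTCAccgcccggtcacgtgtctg
Btg2: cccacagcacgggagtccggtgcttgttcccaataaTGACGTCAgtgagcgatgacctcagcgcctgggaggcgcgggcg
The Fos stretch is chr12:85473755-85473834 on the plus strand, Junb is chr8:84978813-84978892, Dusp1 is chr17:26508589-26508668 and Btg2 is chr1:134079278-134079357, all 3 on the minus strand. The half-site was present in 20.8% of 32851 RefSeq promoter windows and the full element in 1.79%. Among the 8 genes, the windows of Jun, Jund, Ier3 and Zfp36 held no TGACG, which says only that these letters are not in those windows.

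Zfp36 was the one member of the 8 whose window held a serum response CArG box, 58 bases before its RefSeq start, a match found in 1.63% of windows. A box more than 250 bases before the start would not be seen, so none is excluded for Fos or the other members. Egr1 and Ier2, for which no RefSeq sequence was on hand, were not searched. The stretch is chr7:28379242-28379321 on the minus strand, with the box in capitals.
Zfp36: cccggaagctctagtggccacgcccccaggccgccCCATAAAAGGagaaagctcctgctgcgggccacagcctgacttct
The EGR site GCGNGGGCG was found in the windows of Btg2 and Zfp36 and in 5.55% of all windows, and the AP-1 site TGANTCA, present in 7.81%, in none of the 8. The TATA box letters TATAAA were in the windows of Fos and Junb and in 13.6% of all windows. The RefSeq start was not always that of the deposited gene model: it lay 1210 bases upstream for Jund, 1025 bases downstream for Zfp36 and 53656 bases downstream for Dusp1, whose deposited model includes a distant first exon. No binding was measured in these livers, so a match is a description of the letters and not of use.

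Transcripts of Jun and Zfp36 rose after GalNAc-siRnf10, those of Fos, Junb and Dusp1 fell, and those of Jund, Egr1, Ier2, Ier3 and Btg2 did not pass the test at an adjusted p under 0.05 (edgeR quasi-likelihood test). The response of the 10 genes was thus split, with 2 higher and 3 lower. Fos, among the lower, was kept for testing through the controls, where it was high, so its call carries no weight in this count. In the 6 fits that each left out 1 mouse between 1 and 6 members were called, and none was called lower in 4 of them, those without control mouse 2 or 3 or GalNAc-siRnf10 mouse 1 or 3. Among all 14046 tested genes 1965, or 14.0%, passed, of which 943 (6.71%) were higher and 1022 (7.28%) lower. The groups did not overlap for the same 5 members, against 4614 genes, or 32.8%, of all genes tested. Fos is among these 5 and, for the same reason, carries no weight in this count either. With 3 mice a group an exact two-sided permutation test cannot give a p below 0.1, so the calls rest on the spread that edgeR shares across genes. The expression of a gene in whole liver cannot tell fewer cells of a type from less RNA per cell.

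**Figure D1:**
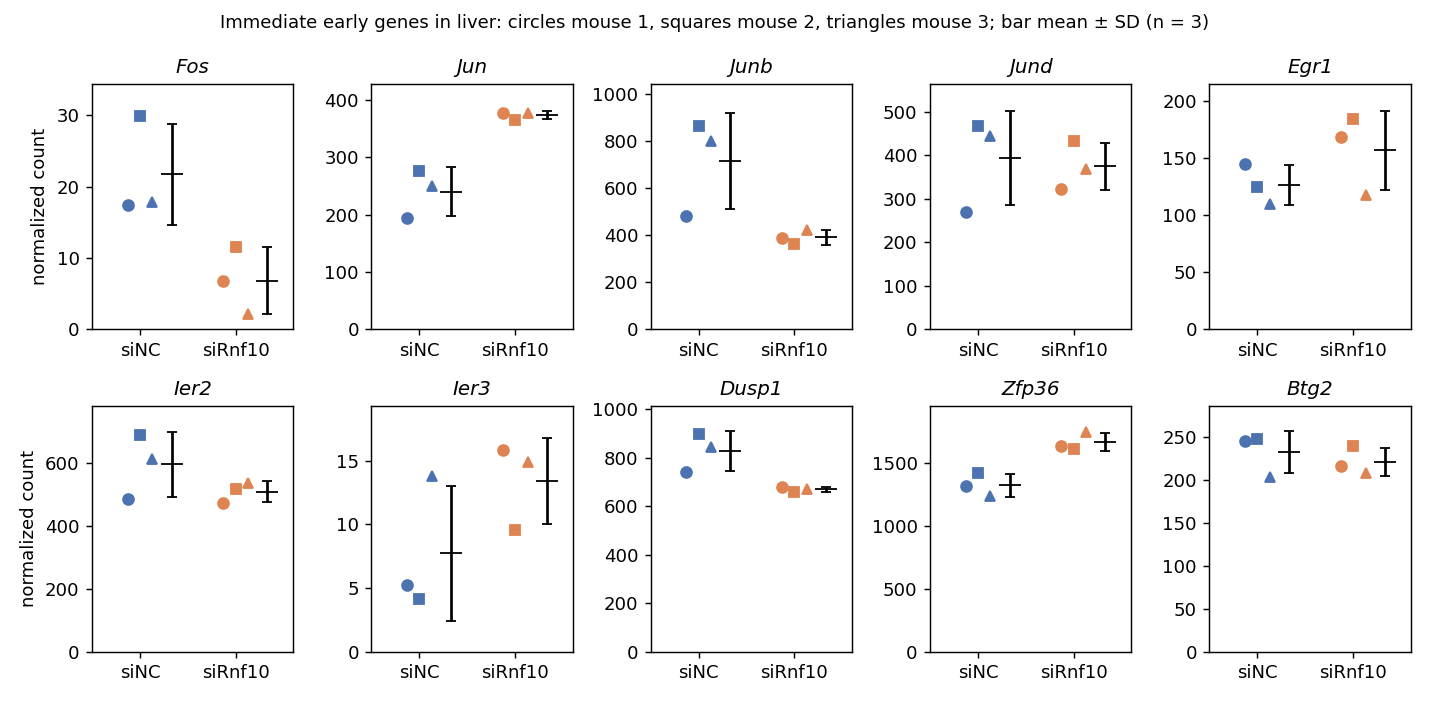
Normalized counts (y axis, starting at 0, a different range for each gene) of the 10 immediate early genes in each liver, with circles, squares and triangles for mice 1, 2 and 3 of a group and a bar for mean ± SD (n = 3). Jun and Zfp36 were higher in all 3 GalNAc-siRnf10 livers, Fos, Junb and Dusp1 were lower in all 3, and the groups overlapped for the other 5 genes.

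Of the 4 AP-1 subunits, Jun rose, Fos and Junb fell and Jund did not pass, and the falls were called in 2 (Fos) and 1 (Junb) of the 6 leave-one-out fits. Jun (chr4:95049034-95052222, minus strand), which encodes c-Jun, had 194, 276 and 251 normalized counts in the control mice and 378, 366 and 378 in the GalNAc-siRnf10 mice. The lowest treated liver exceeded the highest control, and the treated livers lay closer together (coefficient of variation 1.79%) than the controls (17.5%). Jun rose 1.55-fold, or by 0.64 ± 0.13 (SE) on the log2 scale (edgeR adjusted p = 0.00273, exact permutation p = 0.1). It stayed past the threshold in each of the 6 fits that left out 1 mouse, with a log2 fold change between 0.50 and 0.75.

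Junb (chr8:84976910-84978718, minus strand), a Jun relative that often opposes c-Jun, had 483, 865 and 802 normalized counts in the control mice. In the GalNAc-siRnf10 mice the values were 387, 362 and 424. No treated liver reached the lowest control, mouse 1, and that mouse lay nearer to the treated livers than to the other controls. The log2 fold change of Junb was -0.87 ± 0.221 (edgeR adjusted p = 0.0461, exact permutation p = 0.1). Leaving out 1 mouse kept the direction but in 5 of 6 fits lifted the adjusted p above the threshold, to 0.0537 to 0.1502. Without GalNAc-siNC mouse 1 the adjusted p was 6.18e-12 and the log2 fold change -1.10.

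Fos (chr12:85473890-85477273, plus strand), the partner of the Jun proteins in AP-1, was near the limit of detection. The raw counts were 20, 29 and 18 in the control mice and 6, 12 and 2 in the treated mice, or 17.4, 29.9, 17.8, 6.78, 11.5 and 2.13 after normalization. All 3 controls lay above all 3 treated livers, although the last value rests on fewer than 3 counts. Fos fell by 1.62 ± 0.523 on the log2 scale (edgeR adjusted p = 0.0478, exact permutation p = 0.1). It was kept for testing because all 3 controls passed the minimum abundance, which 1 treated liver also passed, and a gene retained in that way was likelier to differ. The call held in 2 of the 6 leave-one-out fits, and the adjusted p ranged from 0.028 to 0.2013 with the log2 fold change between -2.26 and -1.21.

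Jund (chr8:70698949-70700616, plus strand), the most constantly expressed Jun gene in many tissues, had 271, 468 and 444 normalized counts in the control mice and 323, 432 and 367 in the treated mice. The groups overlapped, and control mouse 1 had the lowest value of the 6. The log2 fold change was -0.07 ± 0.209 (edgeR adjusted p = 0.877, exact permutation p = 0.8).

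Because Jun rose while Junb fell, the make-up of the Jun transcripts shifted. The summed level of Jun, Junb and Jund, in counts scaled to library size (CPM) per kilobase of gene length, was 23.9 ± 6.43 (SD, n = 3) in control livers and 18.8 ± 0.93 in treated livers. Jun made up 12.4%, 10.2% and 9.98% of this sum in control mice 1, 2 and 3, and 22.5%, 20.0% and 20.7% in the treated mice. Junb made up 54.5%, 56.6% and 56.3% in the controls and 40.6%, 34.9% and 40.9% after treatment. Jund, whose own counts overlapped between groups, made up 33.1%, 33.2% and 33.7% in the controls and 36.9%, 45.1% and 38.4% after treatment. The shares did not overlap between groups for any of the 3 genes, since a share of a sum also moves with the other genes in it, and control mouse 1 had a summed level of 16.5, below all 3 treated livers.

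**Figure D2:**
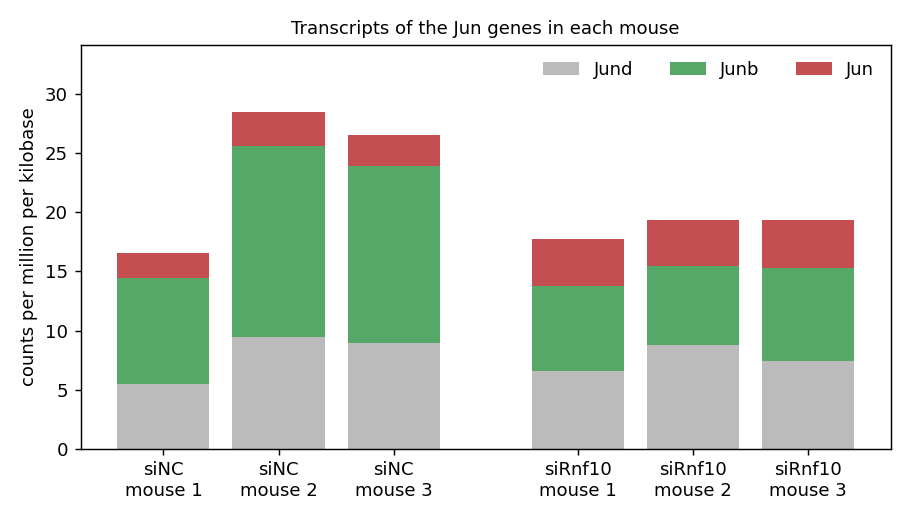
Stacked bars of Jun, Junb and Jund transcript levels in each liver, in CPM per kilobase of gene length (y axis, starting at 0). The Jun segment is larger and the Junb segment smaller in the 3 GalNAc-siRnf10 livers, while the height of control mouse 1, 16.5, sits apart from the other control bars at 28.5 and 26.6.

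A ratio of genes within one library does not depend on how libraries were scaled. The log2 ratio of Junb to Jun counts was 1.31, 1.64 and 1.67 in the controls and 0.03, -0.02 and 0.16 in the treated livers, a difference of -1.48 (exact permutation p = 0.1, the smallest possible). The ratio of Ier2 to Jun varied by an SD of only 0.0178 among the controls around 1.30, and was 0.44 ± 0.0999 (SD, n = 3) in treated livers. These pairs were picked after their values had been seen, and the ratios are given as a description.

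Among the other nuclear factors, Egr1 (chr18:34859823-34864984, plus strand) had 145, 125 and 110 normalized counts in control mice and 168, 184 and 117 in treated mice. The ranges overlapped because treated mouse 3 lay below control mice 1 and 2, and the log2 fold change was 0.31 ± 0.181 (edgeR adjusted p = 0.3005, exact permutation p = 0.3). It ranged from 0.17 without GalNAc-siRnf10 mouse 2 to 0.48 without GalNAc-siRnf10 mouse 3. Ier2 (chr8:84661331-84662854, minus strand), a nuclear protein induced by growth factors, had 485, 689 and 613 normalized counts in control mice. In the treated mice it had 474, 516 and 537. Control mouse 1 lay within the range of the treated livers, and the log2 fold change was -0.22 ± 0.118 (edgeR adjusted p = 0.241, exact permutation p = 0.3). When control mouse 1 was left out, Ier2 passed the threshold with a log2 fold change of -0.36 (adjusted p = 0.0058), and without control mouse 2 the value was -0.11 (adjusted p = 0.623).

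Ier3 (chr17:35821684-35822923, plus strand), a regulator of apoptosis, was the least abundant member of the set in control livers. Its raw counts were 6, 4 and 14 in the controls and 14, 10 and 14 in treated livers. Control mouse 3 lay within the treated range. The log2 fold change was 0.78 ± 0.541 (edgeR adjusted p = 0.387, exact permutation p = 0.2) and moved to 1.47 without control mouse 3 and to 0.50 without control mouse 2, so that at this depth the size of any difference was poorly fixed.

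The feedback inhibitors were also split. Dusp1 (chr17:26505590-26562128, minus strand), the phosphatase that inactivates p38, JNK and ERK, had 740, 899 and 845 normalized counts in control mice and 679, 659 and 673 in treated mice. The groups did not overlap, and the treated values fell within a narrow band with a coefficient of variation of 1.57%. Dusp1 was lower by 19.0%, with a log2 fold change of -0.30 ± 0.0902 (edgeR adjusted p = 0.0326, exact permutation p = 0.1). Of the 6 leave-one-out fits it passed in 1, that without control mouse 1, and the other adjusted p-values lay between 0.079 and 0.1334.

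Zfp36 (chr7:28376784-28380253, minus strand) was the member with the most counts. It had 1319, 1421 and 1238 normalized counts in the controls and 1641, 1613 and 1752 in the treated mice, so that every treated liver exceeded every control. The rise was 1.26-fold, with a log2 fold change of 0.33 ± 0.0755 (edgeR adjusted p = 0.00644, exact permutation p = 0.1), and of the leave-one-out fits only that without GalNAc-siRnf10 mouse 3 (adjusted p = 0.0656) lost it. Btg2 (chr1:134075170-134079120, minus strand) had 245, 248 and 204 normalized counts in control mice and 216, 239 and 208 in treated mice. These ranges overlapped almost fully, with a log2 fold change of -0.07 ± 0.13 (edgeR adjusted p = 0.778, exact permutation p = 0.6) that ranged from -0.16 without control mouse 3 to -0.03 without control mouse 2. Within each library the log2 ratio of Dusp1 to Zfp36, a pair likewise chosen after its values were seen, was lower by 0.63 in treated livers (exact permutation p = 0.1).

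**Figure D3:**
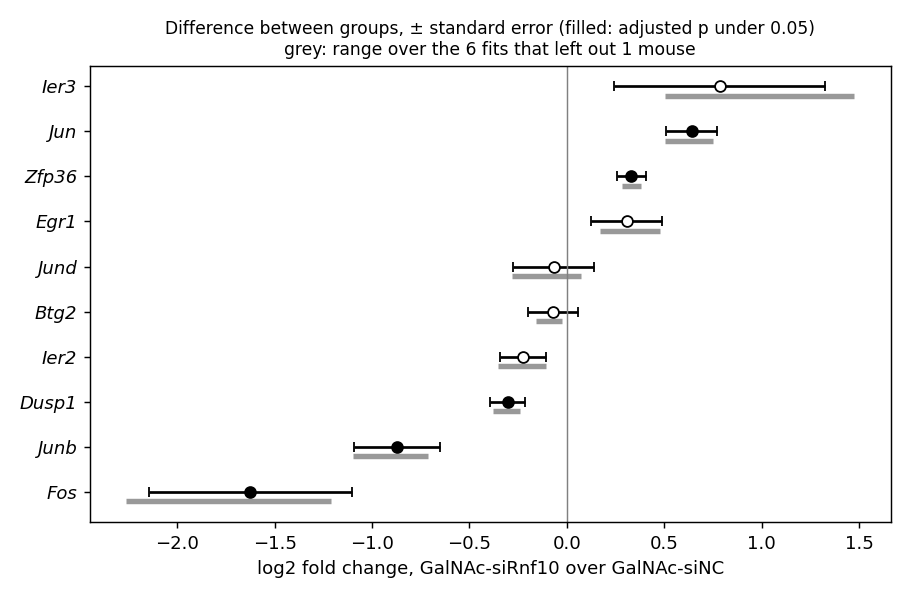
Log2 fold change (x axis, GalNAc-siRnf10 over GalNAc-siNC) of each gene with its standard error, filled where the adjusted p was under 0.05, and in grey the range over 6 fits that each left out 1 mouse. The grey range crosses 0 for Jund, from -0.28 to 0.07, and for no other member.

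Levels between genes were compared per kilobase. In control livers the most abundant members were Junb, at 13.4 ± 3.82 (SD, n = 3) CPM per kilobase, Ier2 at 13.2 ± 2.28 and Zfp36 at 12.9 ± 0.892, which did not differ beyond their spread. Dusp1 (8.43 ± 0.825) and Jund (7.97 ± 2.18) followed without differing from each other, then Btg2 (2.85 ± 0.305) and Jun (2.54 ± 0.445), and then Egr1 at 0.95 ± 0.131. Fos (0.311 ± 0.102) and Ier3 (0.23 ± 0.158) were lowest and overlapped. In treated livers Zfp36 came first at 16.2 ± 0.713, Ier2 second at 11.3 ± 0.713, while Junb, at 7.28 ± 0.577, had dropped below Jund, at 7.56 ± 1.11, within their spread, and Jun, at 3.95 ± 0.0708, lay above Btg2, at 2.71 ± 0.2. The deposited length of Zfp36 counts its intron as transcript, so its level per kilobase is understated. The deposited model of Dusp1 has 6 exonic pieces against 4 exons in its longest coding transcript, so its level may be understated as well. Ranked by counts without correction for length, the order at the top in control livers was Zfp36, Dusp1, Junb and Ier2.

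Each mouse gave 1 library, so a mouse and its library cannot be told apart. GalNAc-siNC mouse 2 had the highest control value for 8 of 10 members and mouse 1 the lowest for 6 of 10, namely Fos, Jun, Junb, Jund, Ier2 and Dusp1. For Junb, mouse 1 lay 0.52 below and mouse 2 lay 0.32 above the control mean on the log2 scale. Among the treated livers no mouse was highest for more than 4 members, and mouse 2 was lowest for 5 of 10. Over the 8 members with at least 50 normalized counts on average, deviations from the group means were most alike for Jun and Dusp1 (Pearson r = 0.996), Jun and Junb (0.975) and Junb and Dusp1 (0.962), and least alike for Junb and Egr1 (-0.60). These correlations run over 6 libraries that share depth and scaling, have at most 4 independent deviations, and are given as a description. Jun deviated by -0.29 to 0.21 among controls but only by -0.03 to 0.02 among treated livers. For Dusp1 the ranges were -0.16 to 0.12 and -0.02 to 0.02. The likeness of these genes therefore rests mainly on the control livers.

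**Figure D4:**
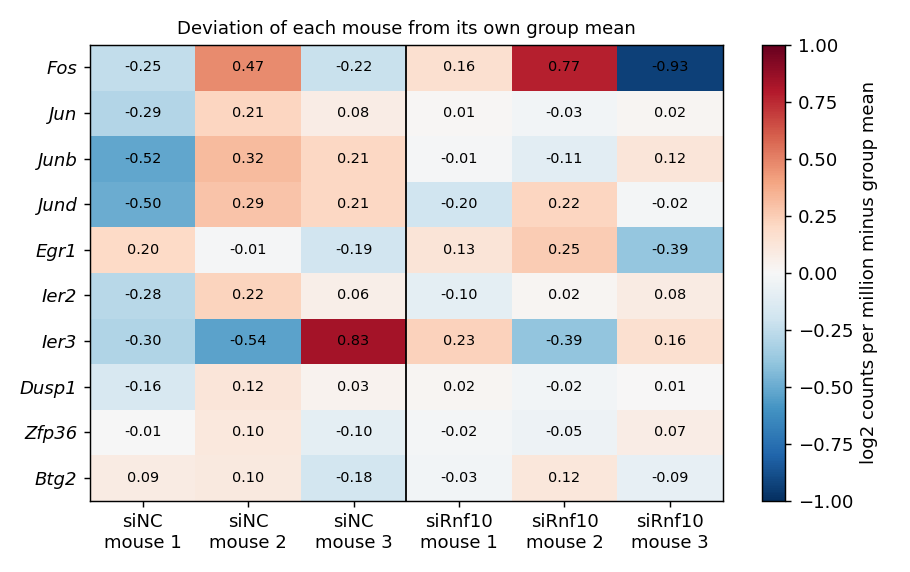
Deviation of each liver from the mean of its own group (colour and printed value, log2 CPM) for the 10 genes in rows and the 6 mice in columns. Control mouse 1 is below its group mean for Jun, Junb, Jund, Ier2 and Dusp1 and control mouse 2 above it, whereas these 5 genes vary less among treated mice.

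Members differed in how far they varied relative to other genes. The within-group SD of log2 values was larger than in 96.8% of tested genes for Fos and 94.5% for Ier3, the members with the fewest counts, and larger than in 82.2% for Jund and 81.4% for Junb. By the biological coefficient of variation that edgeR estimated, the shares for Jund and Junb were 72.2% and 70.9%. Zfp36, at 19.7% by the SD, and Dusp1, at 30.0%, were among the steadier genes. The non-member genes whose deviations most resembled the mean deviation of the 8 abundant members were Apol9b, Cfap298, Axin1, Mocs3, Enho, Med9, Ncaph2 and Plin5, with Pearson r between 0.996 and 0.999 over 6 libraries. Of the 10937 genes compared, 297 had an r above 0.95, so these 8 do not stand apart.

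The other immediate early genes examined gave a mixed picture too. Of 38 genes in 3 lists (other AP-1 and related leucine zipper factors, other transcription factors, and effectors), 28 had enough counts to be tested, 2 rose and 5 fell, with a median log2 fold change of -0.07 against 0.0022 over all tested genes. This count and those of the lists below stand against 14.0% called over all tested genes, 6.71% higher and 7.28% lower. The other 10, including Fosb, Fosl1, Egr2, Egr3, Egr4, Nr4a3, Arc and Ptgs2, had at most 12 counts in any library. Myc, a driver of growth and proliferation, had 1112, 1342 and 1223 normalized counts in controls and 410, 460 and 486 in treated livers. Klf10, induced by transforming growth factor beta, had 1520, 1487 and 1470 in controls and 616, 574 and 572 in treated livers. For both genes the treated livers lay far below every control, with log2 fold changes of -1.44 ± 0.0956 for Myc (edgeR adjusted p = 1.45e-08) and -1.35 ± 0.0771 for Klf10 (edgeR adjusted p = 2.39e-09).

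Csrnp1, a nuclear protein induced by AXIN1, fell as well, with a log2 fold change of -0.72, as did the kinase Pim1 (-0.69) and the small Maf protein Mafk (-0.42). Those that rose were Errfi1, an inhibitor of the epidermal growth factor receptor (0.37), and the salt-inducible kinase Sik1 (0.34). Of the 6 leave-one-out fits the call of Sik1 held only in 2, those without control mouse 1 or 2, and that of Mafk in 4, being lost without control mouse 3 or GalNAc-siRnf10 mouse 2, while Errfi1, Myc, Klf10, Csrnp1 and Pim1 were called in all 6. Of the members' relatives named for their families, Zfp36l2 (-0.88) and Zfp36l1 (-0.41) fell, opposite to Zfp36, while Tob2, a relative of Btg2, rose by 0.26. This made 3 of 6 relatives tested that passed, 1 of them higher, and that call, of Tob2, was lost with scaling by library size alone and in 4 of the 6 leave-one-out fits, those without control mouse 3 or any 1 of the treated mice.

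Of 14 MAP kinase phosphatases and other ERK inhibitors, 12 were tested, with a median log2 fold change of 0.03. Dusp6, the cytoplasmic ERK phosphatase, rose from 277, 292 and 273 normalized counts in controls to 852, 878 and 935 in treated livers, opposite to Dusp1. Its log2 fold change was 1.66 ± 0.0941 (edgeR adjusted p = 2.14e-09). Spry4, which restrains receptor signalling to ERK, rose by 1.01, and Dusp10, which acts on p38 and JNK, fell, with a log2 fold change of -0.73. The call of Dusp10 was lost without control mouse 2, GalNAc-siRnf10 mouse 1 or GalNAc-siRnf10 mouse 3, whereas Dusp6 and Spry4 passed in all 6 leave-one-out fits. Of the kinases and DNA-binding factors upstream of the members, 25 of 26 were tested and only Map2k6, a kinase of p38, passed, with a log2 fold change of 0.78. Among those that did not pass were Srf, Elk1, Creb1, Mapk8 and Mapk14, and the median log2 fold change of the 25 genes was 0.03. Phosphorylation, by which these factors act, was not measured.

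**Figure D5:**
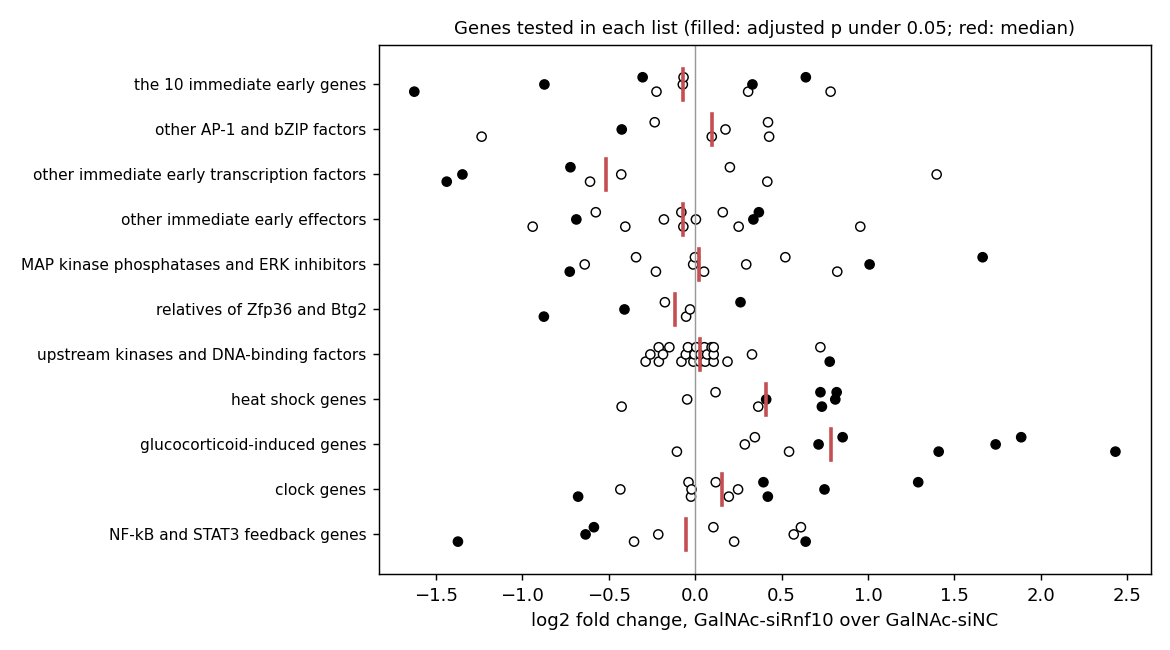
Log2 fold change (x axis, GalNAc-siRnf10 over GalNAc-siNC) of every tested gene in each list, filled where the adjusted p was under 0.05, with a red line at the list's median. The 10 members spread on both sides of 0, the upstream kinases and DNA-binding factors cluster around it, and the glucocorticoid-induced genes, with a median of 0.78, lie mostly to the right.

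Other inducible lists are given beside the members, whose own changes were split, with no test of joint movement. Of 10 heat shock genes, 9 were tested and 5 rose, with a median log2 fold change of 0.41. Hsph1, a co-chaperone, rose by 0.81, Dnajb1, which activates Hsp70, by 0.73, and Hspa1b, an inducible Hsp70 whose near-identical copy Hspa1a may share its reads, by 0.82. Leaving out any 1 of the treated mice ended the call of Hspa1b, whose log2 fold change ranged from 0.57 to 1.01 over the leave-one-out fits, but not those of Hsph1 and Dnajb1. Hsp90aa1 had a log2 fold change of -0.05 and did not pass (edgeR adjusted p = 0.674). Hspb1 (-0.43, edgeR adjusted p = 0.178) did not pass either, but was called lower in 3 of 9 alternatives that kept every mouse. Hspe1 (0.37) and Hspd1 (0.12), also not past the threshold, lay above 0. Of 10 glucocorticoid-induced genes 6 rose and none fell, at a median of 0.78: Ddit4, an inhibitor of mTORC1, by 2.43, Tsc22d3, the glucocorticoid-induced leucine zipper, by 1.89 and the period gene Per1 by 1.74. Klf9, another glucocorticoid target, had a log2 fold change of -0.11 (edgeR adjusted p = 0.273).

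Of 13 clock genes, 12 were tested, 4 rose and 1 fell. Ciart rose by 1.29, Cry1 by 0.75 and Per2 by 0.42, and Nr1d1, the repressor REV-ERB alpha, fell, with a log2 fold change of -0.68. Of 10 feedback genes of NF-kB and STAT3, the inhibitor Nfkbia rose by 0.64, while Socs3 (-1.37), Irf1 (-0.63) and Bcl3 (-0.59) fell, Bcl3 not past the threshold without GalNAc-siRnf10 mouse 1. Glucocorticoids and the clock are known to act on immediate early genes, and their part in the members' differences was not tested.

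Markers of liver cell types were measured beside the members. Of 8 hepatocyte markers 5 rose, with Ttr, Alb and Cps1 the largest at log2 fold changes of 0.66, 0.64 and 0.58, and their summed normalized counts were 1840709, 1732148 and 1777339 in controls and 2635566, 2581449 and 2547002 in treated livers. Alb was the most abundant gene of that sum, with a mean of 1159040 normalized counts in controls and 1805570 in treated livers, and made up most of its rise. Apoa1 (0.08), Hnf4a (0.08) and Asgr1 (0.11) did not pass, and Ttr did not without control mouse 2. None of the 8 Kupffer cell or macrophage markers passed; their sum was 5340, 6145 and 5973 in controls and 5928, 5619 and 5795 in treated livers, with Clec4f the most abundant. Of 8 markers each, 2 of sinusoidal endothelium (Lyve1 and Clec4g) and 3 of stellate cells (Colec11, Dcn and Reln) rose, with list medians of 0.11 and 0.00. The calls of Clec4g and Dcn held in all 6 leave-one-out fits, that of Reln in 4, that of Colec11 in 2 and that of Lyve1 in 1, and Lyve1 passed in 5 and Colec11 in 7 of the 9 other alternatives. Of the endothelium, Stab2 (-0.26, edgeR adjusted p = 0.0544) and Cdh5 (-0.25) had log2 fold changes below 0 but did not pass. Stab2 was called in 4 of the 9 other alternatives. Of stellate cells, Lrat (-0.27), Pdgfrb (-0.25), Des (-0.20) and Hgf (-0.03) were below 0 and did not pass. Of the 5 bile duct markers tested, Spp1 fell, with a log2 fold change of -0.90, and the other 4 did not pass, among them Sox9 (-0.54, edgeR adjusted p = 0.0555, called in 6 of the 9 other alternatives) and Krt19 (-0.20, and between -0.49 and 0.05 over the leave-one-out fits).

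Neutrophil markers were scarce. Of 7 only S100a9 and Csf3r were tested, S100a9 fell, with a log2 fold change of -1.43 (edgeR adjusted p = 0.0171), a call that of the leave-one-out fits held only without control mouse 1. The list's summed normalized counts were 106, 121 and 138 in controls and 68, 65 and 65 in treated livers, while Ly6g and Mpo had at most 2 counts in any library. None of the 3 lymphocyte markers tested, of 8 listed, and none of the 5 red blood cell markers passed. Immediate early genes are also expressed by leukocytes, and the part of such cells in the members' differences was not tested.

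Of the 10 members, 4 share sequence with another annotated gene. In the deposited gene models Fos, Junb, Egr1, Ier2, Ier3 and Btg2 overlapped no other gene, Jun shared 232 bases with the antisense Junos, which had at most 19 counts, and Zfp36 shared 125 bases with Gm44710, which had at most 4. Jund shared 877 bases with Gm11175, which had 0 counts in every library, and Dusp1 shared 11 bases with Ergic1, which had up to 2659. The sources used here do not say whether counting used the strand.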

How the data were processed

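Livers of 6 mice were sequenced as stranded paired-end mRNA libraries. Per the labels and the study's methods, the authors aligned reads with HISAT2 to mouse genome mm10 (GRCm38) and used DESeq2; the counting tool, annotation release and strand setting are not given in the sources used here. The deposited values are raw counts per gene, with the authors' coordinates and merged exon length (another deposited column, in bases). Symbols came from an Ensembl GRCm38 annotation, which matched 55227 of 55487 identifiers.

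From the counts, edgeR 4.0.16 (R 4.3.3) kept genes by filterByExpr (14046), scaled libraries by TMM, and fitted robust quasi-likelihood models of treatment in all 6 libraries. P-values were adjusted by Benjamini-Hochberg over all tested genes, at 0.05. The labels name each library as a different mouse, so p-values measure the spread between mice and their libraries, which cannot be told apart. In edgeR that spread is shared across genes. Errors are standard errors of the edgeR fit or SDs over 3 mice, and the limit of 3 counts covers counting error only. Single genes had an exact two-sided permutation test. Alternatives were other scalings and filters, DESeq2 1.42.0, limma 3.58.1 voom, a replicate block, another threshold, leaving out each mouse, and an offset fitted on each gene's GC content and length.

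The text names all 10 members and Rnf10, and from each other list at most 3 passing genes in each direction with the largest change. Further genes of a list were named after their values were seen. The members and lists were chosen with earlier results of these data known. The code was tested on simulated data.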

Additional observations from a re-analysis of the deposited data

How the results depend on the processing

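The call of 5 members was obtained again with relative log expression or upper-quartile scaling, library size alone, no filter on low counts, an adjusted p under 0.1, DESeq2 (which gave Ier3 no adjusted p) and limma voom. At an adjusted p under 0.01 it dropped to 2 members (Jun and Zfp36) and 1042 genes. Requiring 10 counts in every library left 8 members tested and 4 called, since Fos and Ier3 were no longer tested. An offset for each gene's GC content and length, added once the data had been seen, gave 6, adding Ier2 (adjusted p = 0.0323), with 2587 of 14034 genes called in all. Leaving out each mouse gave between 1 and 6 members called and between 1053 and 2864 genes. Without GalNAc-siRnf10 mouse 3 only Jun was called, without GalNAc-siNC mouse 2 or 3 or GalNAc-siRnf10 mouse 1 only Jun and Zfp36, and without GalNAc-siRnf10 mouse 2 also Fos. Such fits hold fewer samples. Jund turned positive without GalNAc-siNC mouse 2 (0.0748), GalNAc-siNC mouse 3 (0.025) or GalNAc-siRnf10 mouse 1 (0.0264), the log2 fold change being -0.2817 without GalNAc-siNC mouse 1, and no other member changed sign. Scaling moved the median log2 fold change of all genes to at most -0.045, with library size alone. That scaling called 747 genes higher and 1381 lower.

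Same-numbered mice are different animals, and their deviations did not go together (r across genes -0.00099, 0.0272 and -0.0337). A replicate block gave 5 members and 1816 genes called and changed no member's call.

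Fos and Ier3 are limited by depth, with at most 29 and 14 counts in a library.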
